A study of Mus musculus with 8 samples.

Results

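Cytosolic ribosomal protein genes were followed across the cell clusters of a single-cell RNA-seq study of browning preadipocytes. Members were the genes of a deposited table of cluster markers whose symbols start with Rpl or Rps followed by a digit, together with Rplp0, Rplp1, Rplp2 and Rpsa, leaving out the Rps6k kinases and pseudogene names. The rule gave 79 of the 3903 gene symbols and 308 of the 13337 entries of the table, 1 entry being 1 gene in 1 cluster. Of the members, 32 belong to the small ribosomal subunit and 47 to the large subunit.

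The cells were preadipocytes from the inguinal white fat of C57BL/6 mice, grown in culture. Wild-type (WT) mice were compared with double knockout (DKO) mice, which lack HMGN1 and HMGN2, a pair of nuclear proteins that bind nucleosomes. Cells were taken at day 0 and at day 6 of induced browning, with 2 samples in each of the 4 groups WT day 0, DKO day 0, WT day 6 and DKO day 6. The paper's protocol gives insulin, dexamethasone, IBMX, T3 and rosiglitazone for 4 days, and then insulin and T3 alone. The table pools the cells of all 8 samples into 12 clusters numbered 0 to 11 and gives, for each gene and cluster, the fraction of cells with at least 1 read of its transcript in the cluster and in all other cells, here called detection and printed in percent. No value belongs to a sample, a genotype or a day, so there are no replicates, no error and no test, and the differences below describe these pooled cells. Cell numbers and read depth per cluster are unknown. A gene has an entry in a cluster only where it met the minimums the authors set on detection and on fold change, so a gene without one may still be detected there.

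A ribosome joins a small subunit, which reads the mRNA, to a large subunit, which links amino acids into protein. Each subunit carries its proteins on a scaffold of ribosomal RNA, and the proteins are needed in nearly equal numbers. Many of their mRNAs are known to begin with a C followed by a run of pyrimidines (C or T in the DNA). Through this start, growth signals set how much of each such mRNA is translated.

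Of the 79 members, 60 matched RefSeq's table of promoters (GRCm38.p6) by symbol. The annotated start was a C followed by at least 4 further pyrimidines in 13 of these 60 (21.7%), against 813 of 27025 start sites in the whole table (3.01%). Allowing the tract to begin within 5 bases of the annotated start gave 29 of 60 members (48.3%) against 5718 of all start sites (21.2%). The 6 sequences shown were taken from the 13 members with the tract at the annotated start, and hold members that recur in the results. Each is 30 bases long on the gene's strand and begins 12 bases before the annotated start. Capitals mark the tract from its first C.
Rpl35 (chr2:39005114-39005143, minus strand): ccccgccctttcCTCTTTCTCTCgaaccag
Rpl38 (chr11:114668568-114668597, plus strand): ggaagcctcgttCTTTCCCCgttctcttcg
Rps27 (chr3:90213631-90213660, minus strand): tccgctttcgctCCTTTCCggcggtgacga
Rpl28 (chr7:4792953-4792982, plus strand): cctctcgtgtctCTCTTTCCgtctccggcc
Rps10 (chr17:27635227-27635256, minus strand): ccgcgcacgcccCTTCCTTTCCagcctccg
Rps21 (chr2:180257367-180257396, plus strand): cgaggacccgccCTCCTgcccaatagtgct
Among these, Rpl35 has the longest tract, 11 bases, and Rps21 the shortest, 5 bases.

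Ribosomal protein transcripts were detected in nearly all cells. The fractions themselves give how large each of the 12 clusters was, and with those sizes the detection over all cells ran from 89.7% for Rps27l to 99.5% for Rpl13, with a median of 97.6% over the 79 members. For the 69 members with more than 1 entry, the value computed from different clusters agreed to within 0.091 percentage points. Rpl13 (chr8:123102350-123105244) is a large-subunit protein, and Rps27l (chr9:66946086-66949516) is a variant of the small-subunit protein Rps27 known as a target of p53. Of the 77 core and stalk genes whose names the rule can match, 76 had an entry and Rpl36 had none. Fau and Rack1 encode ribosomal proteins under other names, and both were listed as well.

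Entries were spread very unevenly over the clusters. Cluster 4 listed 73 of the 79 members, cluster 2 listed 56, cluster 7 listed 47, cluster 8 listed 46 and cluster 11 listed 41. The other clusters listed few of them, with 20 in cluster 6, 6 each in clusters 5 and 9, 4 in cluster 10 and 3 each in clusters 0, 1 and 3. Cluster 4 listed 92.4% of the members and 53.1% of all symbols. For cluster 2 these shares were 70.9% and 29.0%, for cluster 7 they were 59.5% and 13.8%, and for cluster 8 they were 58.2% and 28.8%. In cluster 11 the members' 51.9% was below the 63.7% of all symbols. Members were also below the share of all symbols in cluster 6 (25.3% against 36.3%), cluster 5 (7.60% against 27.1%), cluster 9 (7.60% against 24.0%) and cluster 10 (5.06% against 18.4%). In clusters 0, 1 and 3 the members' share was 3.80% each, against 17.8%, 18.7% and 10.9% of all symbols.

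Clusters 4 and 10 were the ones in which members were detected in fewer cells than elsewhere. All 73 members listed for cluster 4 and all 4 listed for cluster 10 were lower there, and all 231 entries in the other 10 clusters were higher. Because most members are detected in nearly every cell, an entry in those 10 clusters says little about detection, and the fold change that put it in the table was not used.

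**Figure D1:**
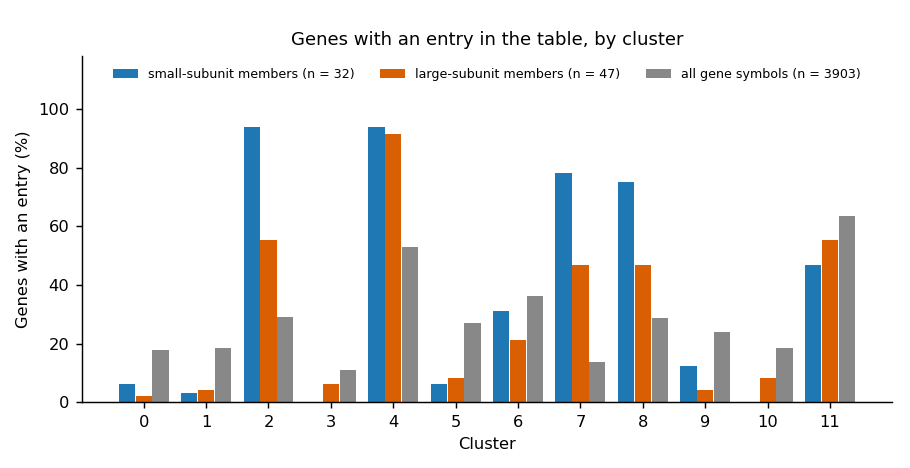
Percent of genes with an entry (vertical axis, 0 to 100%) in each of the 12 clusters (horizontal axis), for the 32 small-subunit members (blue), the 47 large-subunit members (orange) and all 3903 symbols (grey). Small-subunit bars stand above large-subunit bars in clusters 2, 7 and 8, and both stand above the grey bar there and in cluster 4.

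Outside clusters 4 and 10, the differences in detection were small. In cluster 2 they ran from 0.6 points for Rpl13, 0.7 for Rplp1 and 0.9 for Rpl23 to 5.6 for Rpl36a and 6.5 for both Rpl31 and Rpl4. Cluster 7 had Rpl13 at 0.6, Rplp1 at 0.7 and Rpl23 at 0.9 points, and Rps25 at 4.8, Rpl4 at 5.0 and Rpl31 at 5.2 points. Cluster 8 had Rplp1 at 0.7 and Rpl23 at 0.9 points, and Rpl36a at 5.5, Rps27l at 6.1 and Rpl4 at 6.2 points.

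In cluster 6, Rplp1 differed by 0.7 points and Rps20 and Rpsa by 1.1, and at the upper end Rpl36a differed by 5.6, Rpl4 by 6.2 and Rps27l by 9.2. In cluster 11, Rpl13 differed by 0.5, Rpl23 by 0.8 and Rps10 by 1.1 points, against 4.9 for Rpl35, 5.1 for Rpl29 and 5.2 for Rpl22. In cluster 5, Rpl28, Rpl37a, Rps21, Rps27 and Rpl36a had differences of 2.1 to 5.5 points. In cluster 9, Rps28, Rps21, Rps27, Rpl36a and Rps27l had differences of 2.1 to 10.4 points.

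Adipocyte markers were not confined to clusters that listed many members. Cluster 11 held the adipocyte markers, with Plin1, a lipid droplet coat protein, in 99.8% of its cells and 14.4% of all others, and the browning regulator Ppargc1a in 47.5% against 1.8%. Clusters 2 and 8 carried Cd36, a fatty acid carrier, in 68.4% and 87.7% of cells. Pdgfra, a preadipocyte receptor, was at 79.5% in cluster 2 and 62.3% elsewhere, close to the 80.0% and 63.3% for cluster 7. The preadipocyte marker F3 was lower in cluster 2 (55.4% against 79.1%) and higher in cluster 7 (94.4% against 74.9%). Of the 3 adipocyte markers listed for cluster 7, 2 were higher there, Fabp4 in 92.6% against 72.3% and Lpl in 98.5% against 91.7%. The other, Car3, was lower there than elsewhere, at 4.4% of cells. Clusters 5, 6 and 9, with 6, 20 and 6 members listed, carried the cycling marker Mki67 in 78.6%, 92.0% and 91.2% of cells. Cluster 6 also carried Fabp4 in 99.9% against 71.5% and Cd36 in 78.2% against 25.6%. All 5 adipocyte markers listed for cluster 6 were higher there. Of the marker lists, 5 of 6 preadipocyte, 5 of 5 proliferating, 2 of 2 differentiating, 7 of 8 adipocyte and 3 of 5 thermogenic genes had an entry in some cluster.

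Small-subunit members were listed more often than large-subunit members in clusters 2, 7 and 8. In cluster 2, 30 of 32 small-subunit members (93.8%) had an entry, against 26 of 47 large-subunit members (55.3%). The same split was 78.1% against 46.8% in cluster 7 and 75% against 46.8% in cluster 8. Cluster 6 was closer, at 31.3% against 21.3%. Cluster 11 went the other way, with 46.9% of the small-subunit and 55.3% of the large-subunit members.

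In cluster 4, the ribosomal proteins were detected in fewer cells, and by very different amounts. Over its 73 listed members, detection ran from 39.3% to 98.3% with a median of 85.2%, against 95% to 99.6% with a median of 98.9% in all other cells. The difference ran from -55.7 to -1.2 percentage points with a median of -13.6. At 10 points or more below the other cells were 48 members (65.8%), against 92.8% of all entries in cluster 4. The members therefore sat less often past this difference than the cluster's entries as a whole.

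The members with the lowest detection in cluster 4 were Rps27l, at 39.3% against 95% in the other cells, Rpl36al at 42.5% against 96.0%, Rpl22l1 at 56.8% against 96.7% and Rpl31 at 57.0% against 97.5%. Rpl36al (chr12:69182731-69184083) is a variant of Rpl36a, and Rpl31 (chr1:39367842-39371911) lies near the exit of the peptide tunnel. At the other end stood Rplp1 (chr9:61913284-61914542), an acidic protein of the stalk that recruits translation factors, at 98.3% against 99.5%, and Rpl13 at 98.2% against 99.6%. The low end thus lay under 60% of the cluster's cells and the high end above 95%.

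Large-subunit members had the larger gap in cluster 4. The 30 listed small-subunit members were detected in 39.3% to 96.9% of its cells with a median of 89.2%, and the 43 listed large-subunit members in 42.5% to 98.3% with a median of 83.6%. The median difference from the other cells was -9.75 points for the small and -15.3 points for the large subunit, a gap of 5.55 points between the medians. At least 10 points lower were 15 of 30 small-subunit members and 33 of 43 large-subunit members (76.7% of the latter). The 2 ranges overlapped over nearly their whole length.

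Other widely detected genes listed for cluster 4 had a lower median detection there than the ribosomal proteins. Of the genes with an entry there and detected in at least 95% of the other cells, 73 were members and 95 were not. Their median detection in cluster 4 was 85.2% for the members and 56.4% for the others, with median differences of -13.6 and -41.1 points. The sets shared the 95% minimum but were not matched further on detection in the other cells, where the members' median was 98.9%. What part detection elsewhere had in this gap was not tested. At least 10 points lower were 65.8% of the members and 87.4% of the others. Ranked by detection in cluster 4, members made up 9 of the top 20 entries, 29 of the top 50 and 63 of the top 100. Members were 73 of all 2072 entries of the cluster, and 73 of the 168 detected in at least 95% of the other cells. The share in the top 20 was close to the latter, and those in the top 50 and top 100 were above it.

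**Figure D2:**
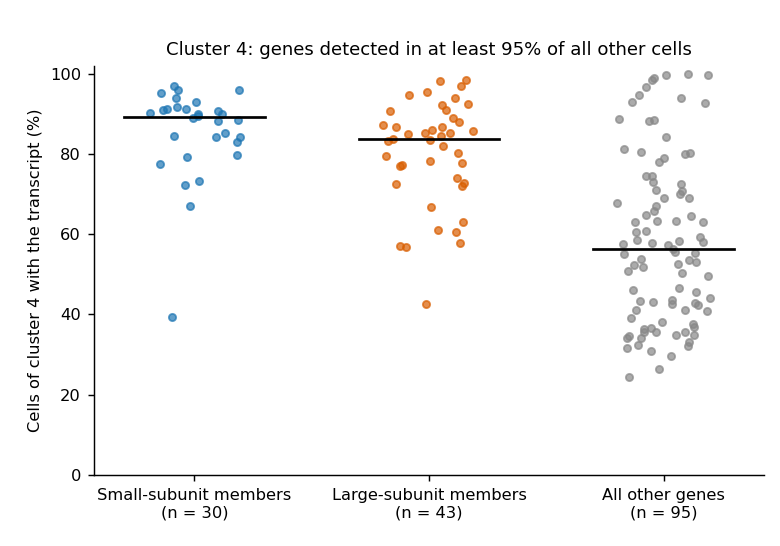
Percent of cluster 4 cells with each transcript (vertical axis, 0 to 100%) for genes detected in at least 95% of all other cells, as 1 point per gene, with the black line at the median: 89.2% for small-subunit members (n = 30), 83.6% for large-subunit members (n = 43) and 56.4% for the other genes (n = 95).

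Most other transcripts listed for cluster 4 were lower there, as the members were, but 17 entries were higher by at least 10 points. The median over all 2072 entries of cluster 4 was 10.8% in the cluster against 63.0% elsewhere. Of the 17 transcripts of translation factors and related proteins known to start with a pyrimidine tract, all 17 were listed somewhere and 14 in cluster 4, all 14 lower, with a median of 60.9% against 97.95%. Eef1a1, the elongation factor that brings aminoacyl-tRNA to the ribosome, was at 98.4% against 99.5%, and Eif3h, a subunit of an initiation factor, at 20.1% against 89.9%. The ribosome-linked proteins Fau and Rack1 were at 88.1% and 84.3%. Of the 7 adipocyte markers listed for cluster 4, 6 were higher and 1, Lpl, was lower, at 88.7% against 92.5%. Among those higher, Fabp4, which carries fatty acids, was at 98.5% against 71.0% and Scd1, a desaturase, at 97.7% against 61.7%. The adhesion receptor Itgb1 was at 19.6% against 93.7%. Immune, endothelial and glial markers had no entry in any cluster. Of 9 mitochondrially encoded transcripts listed for cluster 4, 7 were lower and 2, mt-Atp6 and mt-Nd2, were higher. The part of this lower detection of most genes in the members' values was not tested.

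Cluster 10 listed 4 members, all of the large subunit. Rpl4 (chr9:64173375-64178666), a protein that lines the peptide tunnel, was detected in 46.3% of its cells against 95.5% of all others. Rpl35 was at 59.6% against 96.1%, Rpl38 at 70.4% against 98.1% and the stalk protein Rplp0 (chr5:115559467-115563727) at 77.4% against 99.5%. All 4 were lower by at least 10 points, as were 98.5% of all entries in cluster 10. The other members had no entry there, so their detection in cluster 10 is not known. The cells left without the transcript once cluster 4 and the other listed clusters are counted set a lowest possible value for it. This lowest value had a median of 67.5% over the 69 members with an entry in cluster 4 and none in cluster 10, and ran from 0.0% for Rpl36al and 4.46% for Rps27l to 87.2% for Rpl13, so that for some members it sets no useful limit. Mitochondrially encoded transcripts were also lower in cluster 10, all 9 of those listed, with a median of 54.5% against 99.6%.

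For the members listed in both clusters 4 and 10, nearly all cells without the transcript lay in those clusters. Cluster 4 held 9.59% of all cells and cluster 10 held 3.22%, together 12.8%. For the 4 members with an entry in both, these clusters held 94.9% of the cells without Rpl4, 95.8% of those without Rpl35 and 97.2% of those without Rpl38. In the other 10 clusters, detection was then 99.6% for Rpl4, 99.8% for Rpl35 and 99.9% for Rpl38. For Rplp0, the cells left for the other clusters were fewer than the 0.085 points by which its all-cell value varied with the rounding of the fractions, and for Rpl38 they were close to that limit. Cluster 4 held more of these cells than cluster 10 for Rpl4 (66.5% against 28.4%), Rpl35 (70.1% against 25.7%) and Rpl38 (62.6% against 34.6%), and cluster 10 held more for Rplp0 (61.8% against 37.5%). Over all 73 members listed for cluster 4, that cluster alone held 25.6% to 70.1% of the cells without the transcript, with a median of 57.8%.

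**Figure D3:**
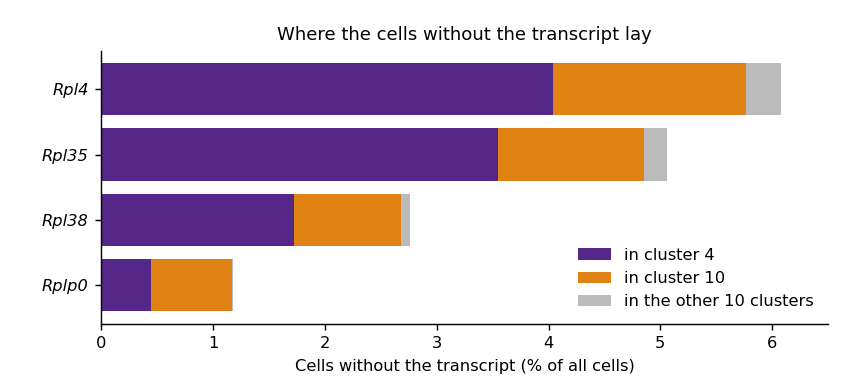
Cells without the transcript as a percent of all cells (horizontal axis) for Rpl4, Rpl35, Rpl38 and Rplp0, split into those in cluster 4 (purple), in cluster 10 (orange) and in the other 10 clusters (grey). The grey part is the smallest for each gene.

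Cluster 4 counts among the other cells of every other cluster, and taking it out lowered the small positive differences seen there. In cluster 2, the median difference of 50 members with an entry in both clusters was 2.1 points against all other cells and 1.14 points once cluster 4 was taken out of them. The same step moved the median from 1.9 to 0.976 points in cluster 7 (41 members), from 2.0 to 1.08 in cluster 8 (40 members) and from 2.25 to 1.03 in cluster 11 (40 members). Of 197 such entries, 2 changed sign: Rps27l in cluster 2, at 92.7% against 95.4%, and Rpl22l1 in cluster 7, at 96.3% against 96.7%.

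The variant Rps27l had the lowest detection of the listed members in each of the 6 clusters that listed it. Detection of Rps27l was 98.6%, 92.7% and 39.3% in clusters 0, 2 and 4, and 98.2%, 95.4% and 99.4% in clusters 6, 8 and 9. Its difference was 10.4 points in both cluster 0 and cluster 9, and these were the only entries of a member at 10 points or more above the other cells, where 66.0% of the entries of cluster 0 and 76.9% of those of cluster 9 reached it. In the remaining clusters with higher members, no member reached 10 points, while 58.8%, 24.6% and 48.7% of the entries of clusters 1, 2 and 3 did so. The share of entries was 72.1%, 51.9%, 59.8% and 26.2% for clusters 5 to 8, in order, and 44.4% for cluster 11. Except for Rps27l, the members listed in these clusters were found in at least 92.6% of the other cells. They had no room for such a difference. Rps27l was found in 89.2%, 89.0% and 89.3% of the other cells of clusters 2, 6 and 8. Rps27, the core gene of Rps27l, was at 72.3% in cluster 4 and between 99.6% and 99.9% in the 5 other clusters that listed it. Rpl22l1 (chr3:28805436-28807424), a variant of Rpl22, was at 56.8% in cluster 4, beside 61.0% for Rpl22 itself. Rpl36al was listed for cluster 4 alone, and its core gene Rpl36a had no entry there but was listed in 8 clusters, the most of any member, at 98.8% to 99.9% of cells. Over all cells, the variants were detected in 89.7% (Rps27l), 90.9% (Rpl36al) and 92.9% (Rpl22l1), against 95.8%, 94.8% and 94.4% for Rps27, Rpl36a and Rpl22. Variants Rpl10l, Rpl39l, Rpl3l, Rpl7l1, Rps27rt and Rps4l had no entry.

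After Rpl36a, the members listed for the most clusters were Rpl28 and Rps21, with 7 each, and 9 members had 6. At the other extreme, 10 members were listed for 1 cluster, cluster 4 in each case, among them the large-subunit genes Rpl3, Rpl8, Rpl10a, Rpl11, Rpl15, Rpl18, Rpl24, Rpl27 and Rpl36al. Rpl11 is one of the ribosomal proteins that bind MDM2 when ribosome assembly fails. Of the 3 stalk members, Rplp2 was listed for 6 clusters, none of them cluster 4, Rplp1 for 5 and Rplp0 for 6.

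**Figure D4:**
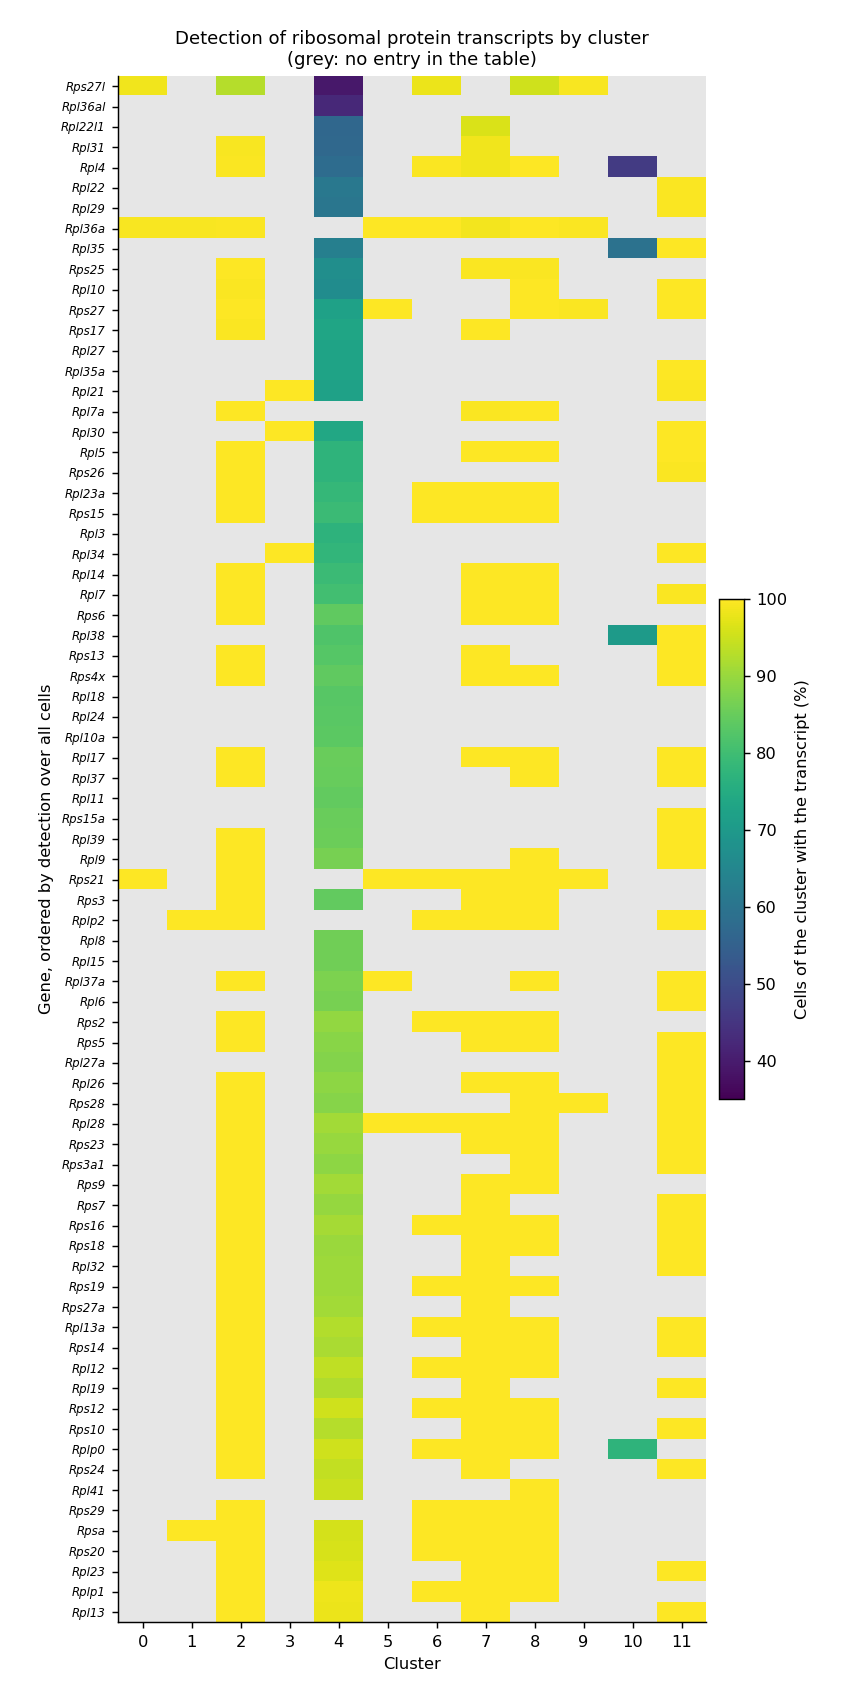
Percent of cells with the transcript (colour, 35 to 100%) for 76 of the 79 members (rows, ordered by detection over all cells) in the 12 clusters (columns); grey marks no entry. Colours other than yellow are nearly confined to clusters 4 and 10.

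Detection in cluster 4 was 63.0% to 92.8% with a median of 84.2% over the 11 listed members with the tract at the annotated start. Over the 45 listed and matched members without it, detection was 39.3% to 98.2% with a median of 86.6%. Some members counted as without it have a tract beginning within 5 bases of that start. Rpl35, with the longest tract of those printed, was at 63.0%, and Rps10, with 10 bases, at 92.8%.

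Proteins of the mitochondrial ribosome, which translates the genes of mitochondrial DNA, were listed mostly for cluster 11. Of the 59 genes of this group with an entry anywhere, 35 had their only entry there, so the group was in large part selected by that cluster. In cluster 11, 52 had an entry and all 52 were higher by at least 10 points, with a median of 91.2% against 54.3%. Of all symbols, 63.7% had an entry in cluster 11, and 44.4% of all its entries were higher by at least 10 points. The 41 cytosolic members listed there were detected in at least 99.5% of its cells, and none was higher by 10 points. Being found in 94.3% to 99.5% of all other cells, they had no room for such a difference. Mrpl1 had the widest difference of the mitochondrial group, at 75.7% against 22.1%, and Mrpl52 the narrowest, at 89.9% against 79.3%. In cluster 4, 11 mitochondrial ribosomal proteins were listed and all 11 were lower, with a median of 17.5% against 67.7%.

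**Figure D5:**
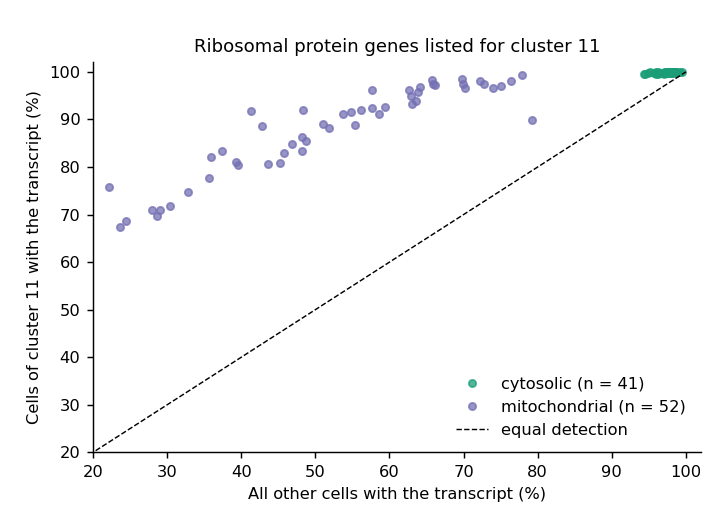
Detection in cluster 11 (vertical axis, percent of cells) against detection in all other cells (horizontal axis, percent) for 41 cytosolic (green) and 52 mitochondrial (purple) ribosomal protein genes listed for cluster 11. All points lie above the dashed line of equal detection; cytosolic genes sit at the upper right corner, and both axes start at 20%.

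Of 15 ribosome biogenesis genes, 10 were listed somewhere, 8 of them in cluster 6, where 36.3% of all symbols had an entry, and 6 in cluster 5, where 27.1% had one. In these clusters 6 and 5 of them were higher by at least 10 points, as were 51.9% and 72.1% of all entries. Cluster 4 listed 5, all lower, and cluster 9, which also carried cycling markers, listed 3. Higher detection was not limited to clusters with cycling markers, since cluster 8 listed 4 and cluster 11 listed 3, all higher. Nop58, a core protein of the complex that methylates ribosomal RNA, was at 93.5% against 65.4% in cluster 5 and 91.3% against 66.0% in cluster 6. The 6 cytosolic members listed for cluster 5 were each in at least 99.8% of its cells.

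Counts of these genes carry an uncertainty of their own. The annotation names 284 pseudogenes for 54 of the 79 members, up to 24 each for Rpl31 and Rps12, and reads shared with such copies may be lost or misplaced. What part such copies had in the values was not tested.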

How the data were processed

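Per the study's methods, the authors captured the 8 samples with 10x 3′ chemistry, mapped reads to mm10 with Cell Ranger 6.0.0, dropped cells with few genes, with many mitochondrial reads or of immune, endothelial or glial type, and clustered the others in Seurat. Doublet removal is not described. They compared each cluster with all other cells by MAST and deposited 1 table. Its detection values are fractions of cells, which the authors rounded to 3 decimals in the deposited file and which are printed here as percents. Its log2 fold changes, p-values and adjusted p-values hold the authors' own comparisons and were not used. The number of per-sample columns left unused is 0.

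Cluster shares were solved by least squares from the 10 genes listed in all 12 clusters, and summed to 99.92%. On simulated fractions, checked over 10 genes, the largest error was 0.07 percentage points. Detection over all cells is the share-weighted mean of both fractions. A difference of 10 percentage points counted as higher or lower. Named genes were the 3 lowest and 3 highest differences per cluster with at least 5 members listed, all variants and stalk genes, genes of 1 cluster and the 5 listed most often. Members and lists were chosen with earlier results of these data known. Gene positions came from GENCODE M21 and starts from RefSeq (both GRCm38). No protein sequence was used here, and some genes that the naming rule picked are not reported here by name. Calculations were run in Python 3.11.15 (pandas 2.3.3, numpy 2.4.6, matplotlib 3.10.9 for plots).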

Additional observations from a re-analysis of the deposited data

How the results depend on the processing

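No paired analysis was possible because cells of the 8 samples were pooled and no value carries a replicate number. Leaving out a sample was not possible for the same reason. The 12 cluster shares, the listed counts under each definition of the members, and the gap between subunits in cluster 4 stayed within their tolerances, and no count or median changed direction. With 5 instead of 10 percentage points, the members higher numbered 4 each in clusters 2 and 8, 3 in cluster 6, 2 each in clusters 0, 7, 9 and 11, and 1 each in clusters 1 and 5. With 20 points they numbered 0 in clusters 0 and 9, and the members lower in cluster 4 numbered 21. The median difference in cluster 0, over 3 members, became 4.05 without the variants and 2.7 with members detected in at least 95% of other cells. An alternative chosen after seeing the data took cluster 4 out of the other cells, over the members with entries in both clusters. For 1 member each, the difference of 10.4 points in cluster 0 became 4.28, and that of 1.2 in cluster 1 became 0.827. Over 3 members each, the medians of 3.9, 2.4 and 4.0 in clusters 3, 5 and 9 became 1.32, 1.23 and 1.40. It became 1.14 in cluster 2, 1.08 in cluster 8 and 1.03 in cluster 11, and 2 of 197 single entries, Rps27l in cluster 2 and Rpl22l1 in cluster 7, turned negative. Depth per cell is unknown, so low detection and shallow sequencing of a cluster cannot be told apart.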
